A study of Mus musculus with 15 samples.

Results

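The genes described here are 58 genes of mitosis and of the G2/M transition, out of 54390 genes listed in each count table. They were chosen by gene symbol and belong to 10 roles, from the cyclin-CDK1 switch to the condensins. All 58 had enough counts to be tested, and the lowest count of any of them in any library was 121 reads. RNA had been sequenced from the mouse microglial line BV2 in 15 libraries. WT cells and Trem2-/- cells were each kept in medium alone (non-foamy) or loaded overnight with soluble cholesterol at 20 μg/ml (foamy), giving 4 non-foamy and 4 foamy WT libraries and 3 non-foamy and 4 foamy Trem2-/- libraries. The methods describe Trem2-/- BV2 cells as clones grown out of a Cas9-expressing BV2 clone by limiting dilution, so the effects of the genotype and of the clone cannot be told apart. The labels do not say whether replicates were separate cultures, and the p-values measure the spread between these libraries, which may be technical.

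Cells enter mitosis when CDK1, bound to cyclin B, is switched on. Polo-like and Aurora kinases then build the spindle, condensins compact the chromosomes, and kinetochores tie the chromosomes to microtubules. The spindle checkpoint holds back the anaphase-promoting complex (APC/C) until every kinetochore is attached, after which cyclin B and securin are destroyed and the cell divides. Most of these genes are transcribed late in the cell cycle through promoter elements called CHR and CCAAT boxes, to which the MuvB complex, with B-Myb or FOXM1, and the factor NF-Y bind. In a dividing culture their transcripts therefore mark cells in G2 and mitosis, and in bulk RNA fewer cells in those phases and less RNA per cell cannot be told apart.

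Promoter letters were read because the genes moved together. RefSeq promoter windows (GRCm38.p6, 250 bases before to 50 after the start) were found for 48 of the 58 genes. Both strands were searched for the CHR core TTTGAA and for CCAAT, and a base could count towards both. The core TTTGAA was found in 34 windows (70.8%), against 18.1% of 27025 windows of the same length over all genes and 9.52% of the 42 windows of an S phase list of 55 genes. CCAAT was found in 36 windows (75%), against 37.9% of all windows and 61.9% of the S phase windows. Both stood in 29 windows (60.4%), against 7.12% of all windows. For 120 further genes of mitosis and of cell cycle control, described later, 99 windows were found. Of these 35.4% held TTTGAA, 58.6% CCAAT and 26.3% both. A match of letters is a description and no evidence of binding. The 120 bases just before the annotated start follow for 4 genes with the CHR core and for 2 without it in this stretch. The wider window of Ccnb2 holds TTTGAA and that of Cdc25b does not. All 6 stretches are free of annotated exons. Capitals mark TTTGAA and CCAAT on the shown strand, or TTCAAA and ATTGG where the match lies on the other strand.
Top2a (chr11:99024190-99024309, minus strand): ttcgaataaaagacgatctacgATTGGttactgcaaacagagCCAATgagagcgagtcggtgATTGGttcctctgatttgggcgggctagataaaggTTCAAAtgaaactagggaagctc
Kif11 (chr19:37376262-37376381, plus strand): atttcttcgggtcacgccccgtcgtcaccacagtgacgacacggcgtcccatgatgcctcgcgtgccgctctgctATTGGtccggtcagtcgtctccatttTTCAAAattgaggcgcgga
Ect2 (chr3:27153879-27153998, minus strand): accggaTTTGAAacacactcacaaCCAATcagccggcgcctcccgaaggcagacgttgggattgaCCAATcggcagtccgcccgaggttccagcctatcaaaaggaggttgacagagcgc
Mki67 (chr7:135716380-135716499, minus strand): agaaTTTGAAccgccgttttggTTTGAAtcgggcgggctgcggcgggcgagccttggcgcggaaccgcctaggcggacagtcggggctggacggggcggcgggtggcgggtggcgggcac
Ccnb2 (chr9:70421555-70421674, minus strand): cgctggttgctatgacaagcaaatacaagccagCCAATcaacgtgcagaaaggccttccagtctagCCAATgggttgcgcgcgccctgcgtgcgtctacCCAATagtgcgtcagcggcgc
Cdc25b (chr2:131186828-131186947, plus strand): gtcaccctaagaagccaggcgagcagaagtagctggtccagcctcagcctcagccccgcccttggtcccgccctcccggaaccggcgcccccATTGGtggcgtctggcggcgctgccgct

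The libraries held 23538963 to 41683825 counted reads. Trem2 itself stood at 327 to 415 CPM (read counts scaled to library size with TMM factors) in the 8 WT libraries taken with and without cholesterol, and at 214 to 232 CPM in the 7 Trem2-/- libraries, which are counts over the whole gene and do not read the edited site. Of 15 microglia and macrophage markers, 10 averaged over 1 CPM. The microglial genes Cx3cr1, Tmem119, C1qa and Fcrls averaged less than that and Sall1 was at 0. The summed level of the 15 averaged 3818 CPM in WT non-foamy, 4143 in WT foamy, 5374 in non-foamy Trem2-/- and 5386 in foamy Trem2-/- cells. In each genotype comparison 7 of the 14 tested markers were called higher in Trem2-/- cells and 2 lower, namely Cx3cr1 (−2.35 and −0.98 on the log2 scale) and P2ry12 (−1.51 and −1.12). The endothelial marker Kdr was lower too (−2.01 and −0.83). The part of these differences in the results was not tested. The summed markers of neurons, astrocytes, fibroblasts, oligodendrocytes and lymphocytes reached at most 0.348, 0.0633, 0, 2.57 and 4.62 CPM, and those of endothelium 9.88 CPM. In all 21 pairs of replicates the counts were further apart than sampling of reads gives (chi-square per gene 5.95 to 60.2). WT non-foamy replicate 3 and Trem2-/- foamy replicate 4 stood apart from their groups for some of these genes. Without the first, 17 genes were called in the WT response to cholesterol and 16 in the difference of the responses described later, in place of 20 and 18.

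WT non-foamy cells expressed the whole set. Per kilobase of exon, the highest levels there were those of Cks2 and Cks1b, small subunits that bind CDK1, at 118 and 88.1 CPM per kb, followed by the condensin subunit Smc4 at 67.0. Foxm1 and the phosphatase gene Cdc25c had the lowest levels, 3.0 and 2.39 CPM per kb. Summed over the 58 genes, the level was 6357 ± 146 CPM (SD, n = 4) in WT non-foamy cells, 5446 ± 258 (n = 4) with cholesterol, 4239 ± 65.5 (n = 3) in Trem2-/- non-foamy cells and 4399.8 ± 64.1 (n = 4) with cholesterol. The group means fell in the order WT non-foamy, WT foamy, Trem2-/- foamy, Trem2-/- non-foamy for 42 of the 58 genes, and in 13 more the last 2 groups changed places. Libraries were ranked in the same way by the median, over the genes, of their log2 deviation from each gene's mean: 0.31 to 0.40 in WT non-foamy, 0.06 to 0.21 in WT foamy, −0.25 to −0.22 in Trem2-/- foamy and −0.33 to −0.27 in Trem2-/- non-foamy libraries. None of these ranges overlapped.

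**Figure D1:**
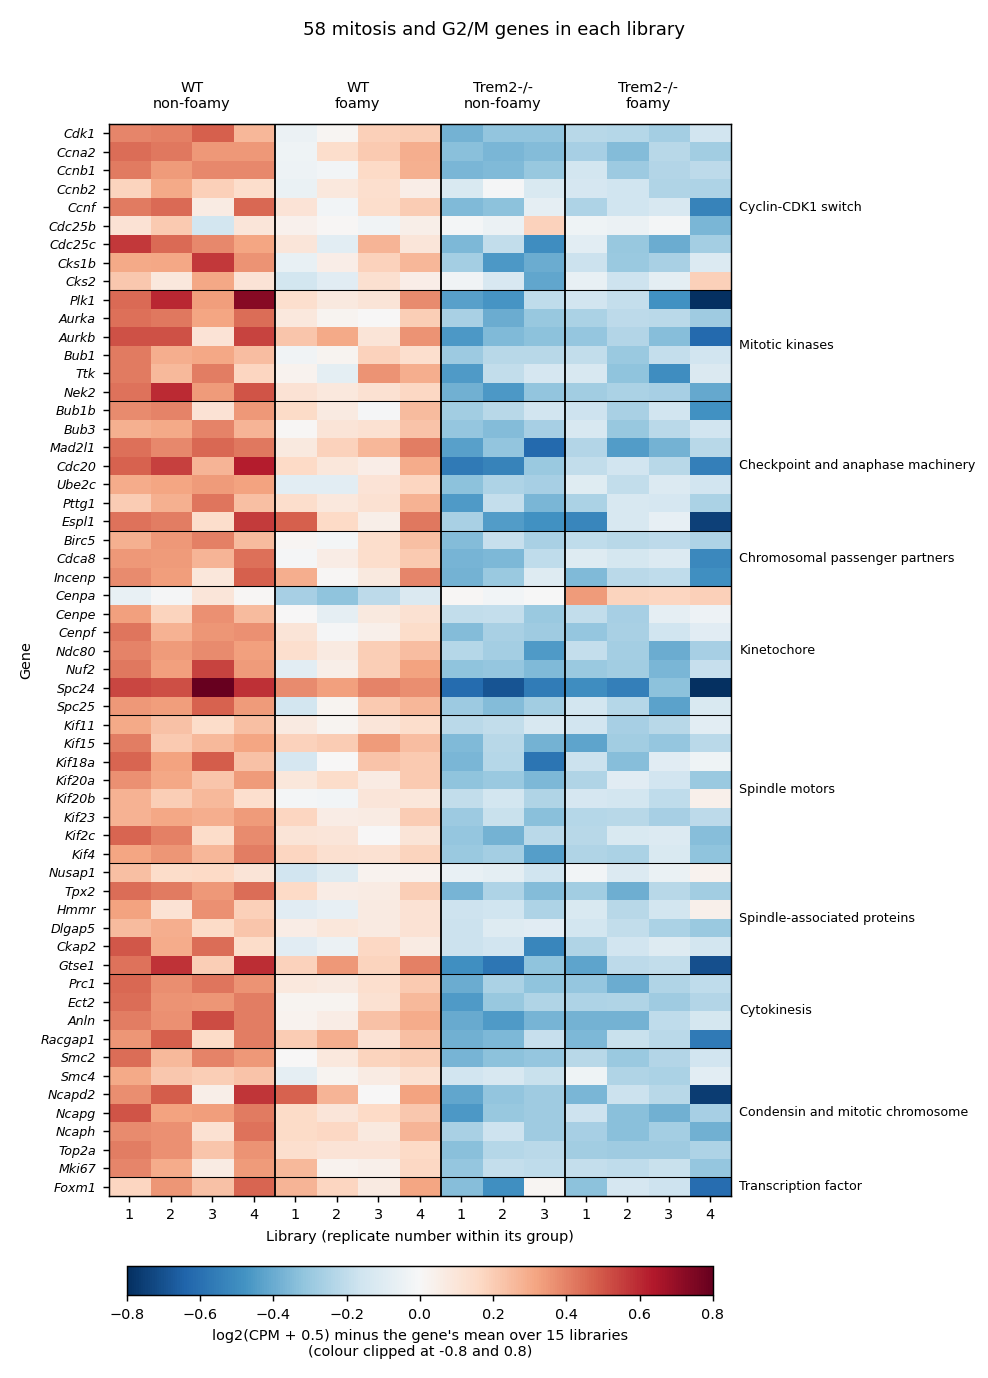
Heat map of the 58 genes (rows, grouped by role) in the 15 libraries (columns, grouped by genotype and cholesterol); colour gives log2(CPM + 0.5) minus the gene's mean over all libraries. The WT non-foamy columns are red and the Trem2-/- columns blue for nearly every row, the WT foamy columns lie between them, and Cenpa and Cdc25b break the pattern.

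Trem2-/- cells were compared with WT cells first without cholesterol. A gene was called when its edgeR quasi-likelihood p, adjusted by Benjamini-Hochberg over the 14237 tested genes, was under 0.05. Of the 58 genes, 56 were called lower in Trem2-/- non-foamy cells and 0 higher, where 22.6% of all tested genes were called lower and 21% higher. Their median log2 fold change was −0.66, against 0.02 over all tested genes, and all 58 values were below 0 (48.6% of all tested genes). In the same 56 genes every Trem2-/- library lay below every WT library, as in 23.5% of all tested genes. The exceptions were Cdc25b and Cenpa, whose values were −0.03 and −0.02.

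With cholesterol, 50 of the 58 genes were called lower in Trem2-/- cells (15.9% of all tested genes) and 1, Cenpa, was called higher (14.3%). The median log2 fold change was −0.36, against 0.00033 over all tested genes. The groups did not overlap in 48 genes that were lower, as in 15% of all tested genes, and in 1 that was higher (13.8%). All 50 genes had also been called lower without cholesterol, and 6 had been called lower there alone: Cks2, Kif18a, Kif20b, Nusap1, Hmmr and Ckap2. A call without cholesterol and none with it is no test of a difference. Of these 6 genes, Kif18a alone was called in the difference of the responses described later. In 56 of the 58 genes the genotype difference was smaller in size with cholesterol than without it, all but Cdc25b and Cenpa. Over all tested genes the genotype differences were narrower too, with quartiles of −0.31 and 0.33 without and −0.22 and 0.23 with cholesterol. The 2 sets of log2 fold changes, which share no library, had a Pearson r of 0.79 and a Spearman rho of 0.65 over the 58 genes, which are not independent of each other.

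**Figure D2:**
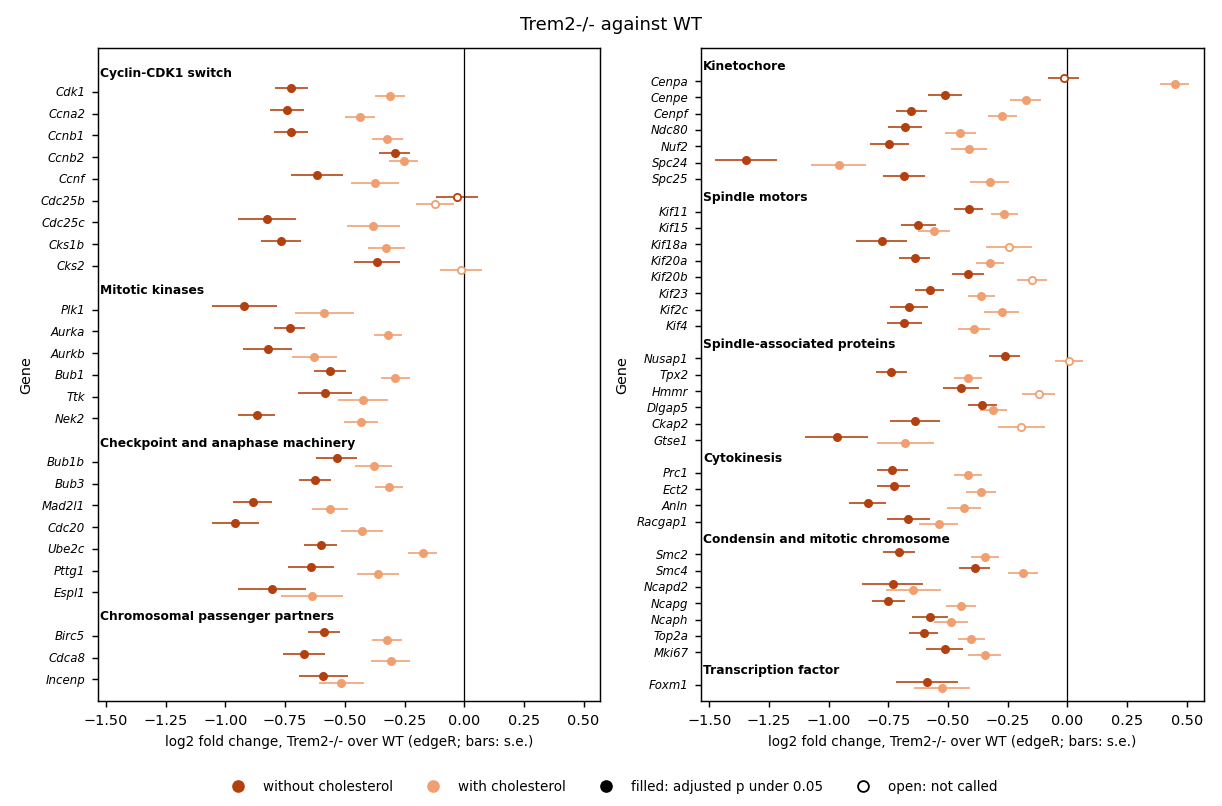
Log2 fold change of Trem2-/- over WT for each of the 58 genes by role, without cholesterol (dark) and with it (light); bars are s.e., filled points were called at an adjusted p under 0.05. Nearly all points lie left of 0 and the dark points lie further left; Spc24 is farthest out at −1.35, Nusap1 with cholesterol lies at 0 and Cenpa with cholesterol at 0.45.

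Mitotic transcripts were also lower in WT cells after cholesterol loading. All 58 values of WT foamy over WT non-foamy cells were below 0 (48.8% of all tested genes), with a median log2 fold change of −0.23 against 0.01 over all tested genes. Of these, 20 genes were called lower (1.14% of all tested genes) and 0 higher (1.66%), and 47 had an unadjusted p under 0.05 in edgeR (16.4%). In 37 genes no WT foamy library reached the lowest WT non-foamy library, as in 5.16% of all tested genes. The number of calls depended on single libraries: it was 3 without WT foamy replicate 2, 7 without WT non-foamy replicate 1, 8 without WT foamy replicate 1, 11 without WT non-foamy replicate 4 and 26 without WT foamy replicate 4. The calls of Aurka, Nek2 and Tpx2 were kept in each of the 8 fits without 1 library, and that of Cenpa was lost in 7. DESeq2 called 35 of the 58 genes lower, and a fit to the 8 WT libraries alone called 5. Over all genes these fits called 832 and 144 in either direction, against 399 in the main fit. Without 1 library the calls over all tested genes ran from 146 (WT foamy replicate 2 left out) to 526 (WT foamy replicate 4 left out).

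In Trem2-/- cells the same loading was followed by no call. By edgeR, 0 of the 58 genes passed (0.14% of all tested genes, which is 20 genes, did in either direction), and 4 had an unadjusted p under 0.05 (6.45%). DESeq2 called 0 of the 58 as well, and 55 over all genes. The median log2 fold change was 0.07, with 44 values above 0 (51.3% of all tested genes) and 14 below (48.6%). The groups did not overlap in 6 genes that were higher (5.38%) and in 1 that was lower (3.88%). All 58 values were below 0 in WT cells, so the same 44 genes had opposite signs in WT and Trem2-/- cells. This count follows from those signs and is no separate result, and none of the 44 was called in Trem2-/- cells.

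The difference between the responses (Trem2-/- minus WT) was tested in the same fit. It was called above 0 for 18 of the 58 genes (1.99% of all tested genes) and below 0 for 0 of them (1.64%). The median difference was 0.31 on the log2 scale, against −0.0024 over all tested genes, and 57 of the 58 values were above 0 (49.6%). Of the 18 genes, 15 were also called in the WT response; the other 3 were Cks1b, Kif18a and Kif20a. Here too the count moved with single libraries. Leaving out WT non-foamy replicate 1 or 4 gave 9 or 11, WT foamy replicate 1 or 2 gave 10 or 4, and WT foamy replicate 4 gave 24. Leaving out Trem2-/- non-foamy replicate 1, 2 or 3 gave 4, 6 or 9, and Trem2-/- foamy replicate 1 or 3 gave 7 or 10. The calls of Aurka, Ube2c and Cenpa were kept in each of the 15 fits without 1 library. DESeq2 called 28. The 2 responses and the 2 genotype comparisons are built from the same 4 groups, so a gene with a positive difference has by construction a more positive genotype difference with cholesterol than without it.

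**Figure D3:**
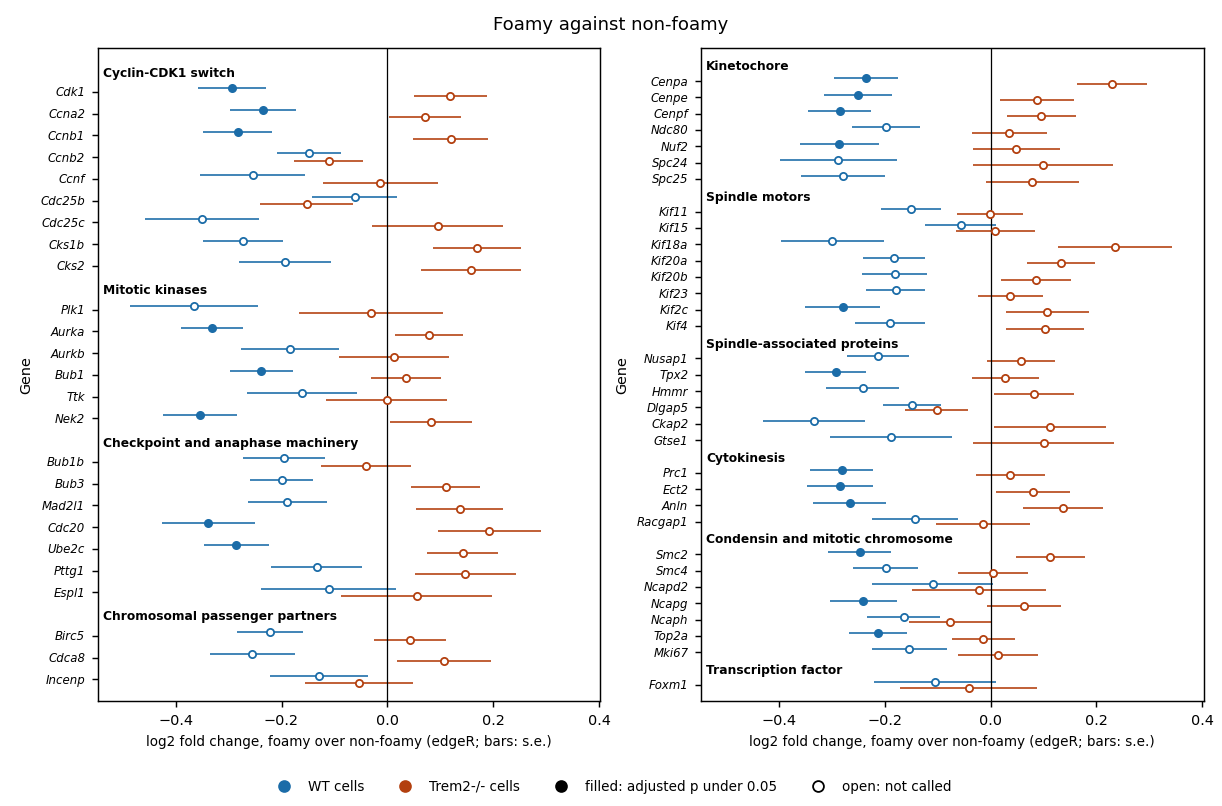
Log2 fold change of foamy over non-foamy cells for each of the 58 genes by role, in WT cells (blue) and in Trem2-/- cells (red); bars are s.e. and filled points were called at an adjusted p under 0.05. All blue points lie left of 0 and 20 are filled; most red points lie right of 0 and none is filled.

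The cyclin-CDK1 switch drives entry into mitosis. Cdk1, its catalytic subunit, stood at 216, 217, 229 and 197 CPM in WT non-foamy, 159, 167, 187 and 189 in WT foamy, 126, 132 and 132 in Trem2-/- non-foamy, and 141, 140.3, 136 and 148 in Trem2-/- foamy libraries. All WT values lay above all Trem2-/- values, and the WT foamy values lay below the WT non-foamy ones. Cdk1 was 39.5% lower in Trem2-/- non-foamy than in WT non-foamy cells (log2 −0.72 ± 0.07 s.e., adjusted p = 2.1e-08) and 19.4% lower with cholesterol (−0.31 ± 0.06, adjusted p = 0.0007). It fell by 18.4% with cholesterol in WT cells (adjusted p = 0.013), and its 2 responses differed by 0.41 (adjusted p = 0.018). Ccnb1, which encodes cyclin B1, stood at 238, 226, 232 and 233 CPM, 173, 176, 199 and 216 CPM, 138, 139 and 144 CPM, and 161, 145, 151 and 154 CPM in the same order of groups. Its steps were near those of Cdk1, with −0.72 and −0.32 between the genotypes and −0.28 with cholesterol in WT cells, all called. Of the 50-base stretches of Ccnb1, 23.4% also occur in other genes, among them the pseudogene Ccnb1-ps, so its counts are less certain.

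Cyclin A2 (Ccna2) was lower by 0.74 and 0.44 on the log2 scale in Trem2-/- cells without and with cholesterol, and cyclin F (Ccnf) by 0.62 and 0.37. Cyclin B2 (Ccnb2) was lower by 0.29 and 0.25, with means of 76.0, 68.6, 62.1 and 57.5 CPM, and it was 1 of the 14 genes that lay below 0 in both responses. The phosphatases that switch CDK1 on differed in their values. Cdc25c stood at 12.9, 11.9, 11.4 and 10.8 CPM in WT non-foamy, 9.2, 8.04, 10.5 and 9.21 in WT foamy, 6.58, 7.40 and 5.93 in Trem2-/- non-foamy and 8.03, 6.84, 6.39 and 7.02 in Trem2-/- foamy libraries, a genotype difference of −0.83 ± 0.12 without and −0.38 ± 0.11 with cholesterol, both called. Cdc25b stood at 65.6, 69.8, 54.4 and 64.7, then 61.9, 60.8, 59.3 and 62.3, then 59.8, 58.4 and 68.9, then 59.0, 58.6, 59.7 and 46.9 CPM, and all 4 groups overlapped. It was called in none of the 5 comparisons (adjusted p from 0.274 to 0.825), and its log2 fold changes were between −0.15 and −0.03. Cks1b was lower by 0.77 and 0.33 in the genotype comparisons. Cks2 was lower by 0.37 without cholesterol (adjusted p = 0.0033) and had −0.01 with it (adjusted p = 0.93), and 29.7% of its 50-base stretches occur in other genes, among them the processed copy Gm15452.

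All 6 mitotic kinases were called lower in Trem2-/- cells without and with cholesterol, as were 22.6% and 15.9% of all tested genes. Aurka, the kinase of the spindle poles, stood at 109, 108, 100.2 and 109 CPM in WT non-foamy, 85.0, 81.6, 80.5 and 92.1 in WT foamy, 66.9, 60.9 and 64.9 in Trem2-/- non-foamy, and 67.4, 69.3, 69.0 and 65.8 in Trem2-/- foamy libraries. The WT foamy libraries formed a separate step between the WT non-foamy and the Trem2-/- libraries. This was the lowest adjusted p of the WT response among the 58 genes (−0.33 ± 0.06, adjusted p = 0.0025), and the responses differed by 0.41 (adjusted p = 0.0097). Nek2, a kinase that separates centrosomes, had 42.2, 47.3, 39.4 and 44.2, then 33.7, 33.0, 33.9 and 35.0, then 23.7, 22.5 and 24.9, then 25.5, 25.9, 25.8 and 23.2 CPM, with 3 levels of the same kind and genotype differences of −0.87 and −0.43.

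Plk1, the polo-like kinase that acts from mitotic entry to cytokinesis, had the largest difference of the 6 kinases without cholesterol. Its values were 39.2, 43.6, 36.1 and 47.5 CPM in WT non-foamy, 31.4, 30.1, 30.7 and 37.3 in WT foamy, 21.0, 20.4 and 24.7 in Trem2-/- non-foamy, and 25.6, 24.9, 20.2 and 15.3 in Trem2-/- foamy libraries. The Trem2-/- cells were 47.2% lower without cholesterol (−0.92 ± 0.14, adjusted p = 8.2e-06) and 33.4% lower with it (−0.59 ± 0.12, adjusted p = 0.00095). WT foamy and non-foamy libraries overlapped, and the WT response of −0.37 was not called (adjusted p = 0.11). Aurkb, the kinase of the chromosomal passenger complex, was lower by 0.82 and 0.63 in the genotype comparisons, the checkpoint kinases Bub1 and Ttk by 0.56 and 0.29 and by 0.58 and 0.42.

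The checkpoint and anaphase genes moved the same way. In both genotype comparisons 7 of 7 were called lower (22.6% and 15.9% of all tested genes). Cdc20, the activator through which the checkpoint restrains APC/C, stood at 76.9, 81.0, 66.8 and 85.7 CPM in WT non-foamy, 61.7, 59.0, 57.2 and 68.0 in WT foamy, 37.2, 38 and 44.8 in Trem2-/- non-foamy, and 48.0, 49.7, 47.2 and 37.6 in Trem2-/- foamy libraries. WT and Trem2-/- libraries were apart in both conditions, while the WT foamy and non-foamy ranges overlapped between 66.8 and 68.0 CPM. Without cholesterol Cdc20 was 48.5% lower in Trem2-/- cells (−0.96 ± 0.10, adjusted p = 4.8e-08), and with it 25.6% lower (−0.43 ± 0.09, adjusted p = 0.00081). Its response was −0.34 in WT cells (adjusted p = 0.038) and 0.19 in Trem2-/- cells (adjusted p = 0.79), a difference of 0.53 (adjusted p = 0.027). The WT call was lost in 6 of the 8 fits without 1 library (adjusted p up to 0.134). The call of the difference was lost in 7 of 15 such fits (adjusted p up to 0.094). Ube2c, the ubiquitin-conjugating enzyme of APC/C, had 116, 118, 120.1 and 118, then 89.4, 89.4, 102.4 and 107, then 75.5, 79.7 and 78.6, then 88.6, 82.4, 87.7 and 85.0 CPM. The genotype difference of Ube2c was −0.60 without cholesterol and −0.17 with it (adjusted p = 0.036). The call with cholesterol was lost in 5 of the 8 fits without 1 library (adjusted p up to 0.152). The responses of Ube2c differed by 0.43 (adjusted p = 0.01). Exons of Ube2c overlap those of Tnnc2 on the other strand over 22.8% of their length. Mad2l1, a core checkpoint protein, was lower by 0.89 and 0.56, the separase gene Espl1 by 0.80 and 0.64, securin (Pttg1) by 0.64 and 0.36, and Bub1b and Bub3 by 0.53 and 0.63 without and 0.38 and 0.32 with cholesterol.

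The chromosomal passenger partners place Aurora B on centromeres and then on the midzone. They were called lower in 3 of 3 cases without and with cholesterol (22.6% and 15.9% of all tested genes). In the WT response 0 of 3 were called lower (1.14%). Cdca8, or borealin, stood at 59.4, 59.1, 56.2 and 63.3 CPM in WT non-foamy, 46.3, 48.4, 51.2 and 53.7 in WT foamy, 35.8, 36.1 and 40.4 in Trem2-/- non-foamy, and 43.2, 42.2, 43.2 and 32.4 in Trem2-/- foamy libraries. The WT groups did not overlap although the response of −0.26 was not called (adjusted p = 0.087), and the genotype differences were −0.67 ± 0.09 and −0.31 ± 0.08. Survivin (Birc5) was lower by 0.59 and 0.32 and Incenp by 0.59 and 0.51.

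Kinetochore genes held both extremes of the set. Spc24, a subunit of the NDC80 complex that binds microtubules, had the largest difference of the 58 genes. It stood at 12.1, 11.9, 16 and 12.5 CPM in WT non-foamy, 10.8, 10.4, 10.9 and 10.7 in WT foamy, 5.16, 4.87 and 5.40 in Trem2-/- non-foamy, and 5.64, 5.44, 6.42 and 4.49 in Trem2-/- foamy libraries. Every Trem2-/- library lay below every WT library. Spc24 was 60.6% lower without cholesterol (−1.35 ± 0.13, adjusted p = 1.8e-08) and 48.5% lower with it (−0.96 ± 0.12, adjusted p = 1.6e-06). Of the other subunits of that complex, Ndc80 was lower by 0.68 and 0.45, Nuf2 by 0.75 and 0.41 and Spc25 by 0.68 and 0.33.

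Cenpa, the histone H3 variant that marks centromeres, did not follow the others. The gene lies at chr5:30666777-30674830 on the plus strand of GRCm38. It stood at 67.4, 69.7, 75.1 and 70.5 CPM in WT non-foamy, 58.4, 56.1, 60.7 and 64.8 in WT foamy, 70.6, 69.1 and 69.95 in Trem2-/- non-foamy, and 88.9, 79.4, 79.1 and 80.3 in Trem2-/- foamy libraries. The non-foamy groups overlapped (−0.02 ± 0.07, adjusted p = 0.87), whereas with cholesterol all Trem2-/- libraries lay above all WT libraries, a level 36.6% higher (0.45 ± 0.06, adjusted p = 6.1e-06). The WT response was −0.24 (adjusted p = 0.036) and the Trem2-/- response 0.23 (adjusted p = 0.37), and their difference of 0.47 had the lowest adjusted p of the 58 genes in that test (0.0049). No annotated exon of another gene overlaps those of Cenpa. Cenpf, a large kinetochore protein of G2, followed the general pattern with 253, 229, 240.2 and 243, then 202, 187, 194 and 209, then 148, 157 and 154, then 152, 157, 169 and 177 CPM, with differences of −0.65 and −0.27 between the genotypes and −0.29 with cholesterol in WT cells (adjusted p = 0.01). The kinesin Cenpe was lower by 0.51 and 0.17.

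Of the 8 spindle motors, 8 were called lower without cholesterol (22.6% of all tested genes) and 6 with it (15.9%). Kif18a, which damps chromosome movements at the plate, stood at 39.0, 35.2, 39.6 and 33.2 CPM in WT non-foamy, 25.5, 28.2, 33.1 and 32.7 in WT foamy, 21.7, 24 and 18.6 in Trem2-/- non-foamy, and 24.9, 22.1, 26.4 and 27.4 in Trem2-/- foamy libraries. Without cholesterol the genotypes were apart (−0.78 ± 0.11, adjusted p = 3.5e-06), while with it the ranges overlapped (−0.24 ± 0.10, adjusted p = 0.063). Its responses differed by 0.53, the largest value of the set (adjusted p = 0.042), and this call was lost in 10 of the 15 fits without 1 library (adjusted p up to 0.129). Kif20b, a motor of late cytokinesis, was the other motor not called with cholesterol (−0.15, adjusted p = 0.072). Kif11, the Eg5 motor that separates the poles, had −0.41 and −0.26, and Kif15, which can stand in for it, had −0.62 and −0.56 with a WT response of −0.06 that was not called. Kif2c was the 1 motor called in the WT response (−0.28, adjusted p = 0.035), where 1.14% of all tested genes were called lower. Kif20a, Kif23 and Kif4, motors of the central spindle, were lower by 0.58 to 0.68 without and by 0.32 to 0.39 with cholesterol. Kif20a shares 29.3% of its exonic length with Cdc23 on the other strand and Kif4 15.1% with Pdzd11.

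The 6 spindle-associated genes were called lower without cholesterol in 6 cases (22.6% of all tested genes) and with it in 3 (15.9%). Tpx2, the activator of Aurora A on spindle microtubules, had the lowest adjusted p of the set without cholesterol. It stood at 177, 173, 165 and 177 CPM in WT non-foamy, 145, 135, 136 and 149 in WT foamy, 100.3, 109 and 102.1 in Trem2-/- non-foamy, and 107, 98.7, 111 and 107 in Trem2-/- foamy libraries. These are 3 separate levels, with genotype differences of −0.74 ± 0.06 (adjusted p = 3.6e-09) and −0.42 ± 0.06 (adjusted p = 9.1e-06) and a WT response of −0.29 (adjusted p = 0.006). Gtse1, a microtubule-binding protein of G2, had the second largest genotype difference: 14.6, 16.2, 12.3 and 16.4, then 12.2, 13.7, 12.1 and 14.3, then 7.47, 7.0 and 8.44, then 7.87, 9.19, 9.24 and 6.39 CPM, or −0.97 ± 0.13 and −0.68 ± 0.12. The WT groups overlapped for Gtse1, and its WT response was not called (−0.19, adjusted p = 0.44). At the other end, Nusap1, which bundles microtubules, had −0.26 without cholesterol (adjusted p = 0.0018) and 0.01 with it (adjusted p = 0.94), with mean levels of 141, 122, 117 and 122 CPM. Hmmr and Ckap2 were likewise called without cholesterol (−0.44 and −0.64) and not with it (−0.12 and −0.19), and Dlgap5 was called in both (−0.36 and −0.31).

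Cytokinesis genes were called lower in 4 of 4 cases in both genotype comparisons (22.6% and 15.9% of all tested genes). In the WT response 3 of 4 were called lower (1.14%). Anln, the cortical scaffold anillin, stood at 121, 118, 131 and 121 CPM in WT non-foamy, 93.3, 95.3, 107 and 113 in WT foamy, 69.1, 66.6 and 70.6 in Trem2-/- non-foamy, and 70.3, 70.3, 79.4 and 82.7 in Trem2-/- foamy libraries. The highest Trem2-/- value was 82.7 and the lowest WT value 93.3 CPM, with differences of −0.84 ± 0.08 and −0.43 ± 0.07. The call of Anln in the WT response (−0.27) was lost in 6 of the 8 fits without 1 library (adjusted p up to 0.159). Prc1, which bundles the central spindle, had 89.5, 84.2, 87.4 and 83.4, then 68.9, 68.1, 71.3 and 75.1, then 49.2, 54.2 and 51.9, then 52.3, 49.2, 54.8 and 56.3 CPM. For Prc1 the WT response was −0.28 (adjusted p = 0.0099) and the Trem2-/- response 0.04. Ect2, the exchange factor that activates RhoA at the equator, was lower by 0.73 and 0.36 and its partner Racgap1 by 0.67 and 0.54.

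The condensin and chromosome genes were called lower in 7 of 7 cases in both genotype comparisons (22.6% and 15.9% of all tested genes). Top2a, the topoisomerase that untangles sister chromatids, stood at 451, 438, 395 and 436 CPM in WT non-foamy, 372, 366, 366 and 379.5 in WT foamy, 269, 289.7 and 292 in Trem2-/- non-foamy, and 279.9, 279, 278 and 286 in Trem2-/- foamy libraries. Neither the genotypes nor the WT groups overlapped. Top2a was 34.1% lower in Trem2-/- non-foamy cells (−0.60 ± 0.06, adjusted p = 3.4e-08) and 24.3% lower with cholesterol. Top2a fell with cholesterol in WT cells (−0.21 ± 0.05, adjusted p = 0.036), a call lost in 6 of the 8 fits without 1 library (adjusted p up to 0.127). It had −0.01 in Trem2-/- cells, and the difference of the responses was not called (0.20, adjusted p = 0.19). Mki67, which encodes the proliferation marker Ki-67, had 474, 443, 378 and 458, then 432, 368, 371 and 406, then 291, 316 and 314, then 316, 314, 319 and 291 CPM. Mki67 was 30.0% lower in Trem2-/- non-foamy cells (−0.51 ± 0.08, adjusted p = 9.6e-06) and 21.4% lower with cholesterol, while its WT groups overlapped and the WT response was not called (−0.15, adjusted p = 0.27). Ncapg, a subunit of condensin I, had 81.0, 71.4, 72.0 and 76.2, then 63.4, 61.0, 63.9 and 66.3, then 41.4, 46.1 and 46.7, then 50.8, 45.1, 43.5 and 47.3 CPM, with 3 separate levels and genotype differences of −0.75 and −0.45. Of the other condensin subunits, Smc2, Ncapd2 and Ncaph were lower by 0.57 to 0.73 without cholesterol and Smc4 by 0.39.

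Foxm1 encodes a transcription factor that acts on many of these promoters. Its levels were low, 15.6, 17.8, 16.4 and 19.3 CPM in WT non-foamy, 16.8, 15.6, 14.6 and 17.3 in WT foamy, 10.8, 9.71 and 14 in Trem2-/- non-foamy, and 10.9, 12.6, 12.3 and 8.91 in Trem2-/- foamy libraries. WT and Trem2-/- libraries were apart (−0.59 ± 0.13, adjusted p = 0.0007, and −0.52 ± 0.12 with cholesterol, adjusted p = 0.0016). Foamy and non-foamy libraries overlapped in both genotypes, with −0.11 in WT and −0.04 in Trem2-/- cells.

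**Figure D4:**
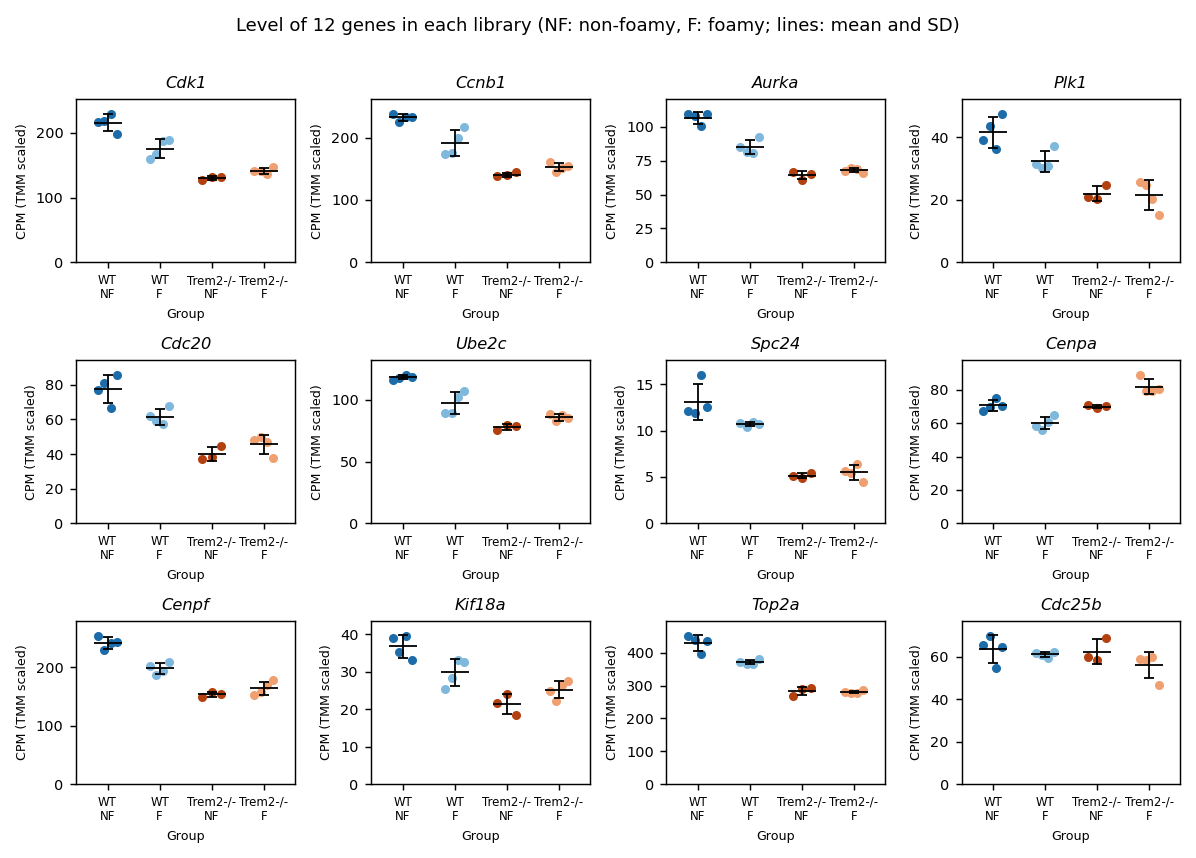
CPM of 12 genes in each library by group (points), with the group mean and SD (lines); every axis starts at 0. Most genes step down from WT non-foamy to WT foamy to Trem2-/- cells, Spc24 drops most between the genotypes, Cenpa is highest in Trem2-/- foamy cells (79.1 to 88.9 CPM) and Cdc25b overlaps across the 4 groups.

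Genes with and without the CHR core in their promoter window were set side by side, with no test. The 34 genes with TTTGAA had median log2 fold changes of −0.66 and −0.35 between the genotypes without and with cholesterol and −0.24 in the WT response. For the 14 genes with a window but without TTTGAA these medians were −0.61, −0.32 and −0.22. Without cholesterol the values ran from −0.96 (Cdc20) to −0.02 (Cenpa) with the core and from −0.97 (Gtse1) to −0.03 (Cdc25b) without it.

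Further genes of mitosis and of cell cycle control were taken from 7 lists of 120 genes written by hand, of which 119 were tested. Without cholesterol, 25 of 30 other kinetochore and centromere genes and 21 of 23 other spindle and cytokinesis genes were called lower in Trem2-/- cells. In both lists 0 were called higher, and the list medians were −0.50 and −0.63. Over all tested genes 22.6% were called lower and 21% higher. The largest differences were those of Cenpm and Cenpk (−1.30 and −0.997), both of the inner kinetochore, and of the motor Kif18b and the Aurora A cofactor Bora (−1.05 and −0.88). Of 3 further condensin genes 2 were lower (Ncapd3 −0.56 and Ncapg2 −0.45). APC/C genes, most of them stable core subunits, were called lower in 6 of 15, with a median of −0.18, and the largest values were those of Ube2s and Fzr1 (−0.78 and −0.56). Cohesin and its regulators were called lower in 6 and higher in 3 of 13 genes. The share called higher (23.1%) was near that of all tested genes. The 3 higher genes were Wapl, which releases cohesin, and Nipbl and Mau2, which load it, with 0.20, 0.23 and 0.30. With cholesterol the counts of called lower genes were 20, 18, 2, 3 and 5 in the same lists, and Wapl alone was called higher (0.18). There 15.9% of all tested genes were called lower and 14.3% higher.

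A list of 15 further regulators of CDK1, of the phosphatase that opposes it and of cell cycle checkpoints held brakes on CDK1 as well as genes that act in its favour. Of these, 7 (46.7%) were called lower and 4 (26.7%) higher in Trem2-/- cells without cholesterol. Over all tested genes the shares were 22.6% and 21%. Gadd45a, a stress-induced protein that binds CDK1, stood at 0.726, 0.644, 0.792 and 0.558 CPM in WT non-foamy, 1.14, 1.08, 1.31 and 0.801 in WT foamy, 4.64, 5.12 and 4.24 in Trem2-/- non-foamy, and 3.81, 3.91, 4.56 and 4.64 in Trem2-/- foamy libraries. All Trem2-/- libraries exceeded all WT libraries, with log2 fold changes of 2.79 ± 0.21 (adjusted p = 4.4e-10) and 1.96 ± 0.19 (adjusted p = 5.1e-08). Ensa, which inhibits the phosphatase that opposes CDK1, was higher by 0.59 and 0.39, and the checkpoint kinase Chek2 by 0.24 and 0.19. Cdkn2c, an inhibitor of the G1 kinases CDK4 and CDK6, was higher by 0.32 without cholesterol. The kinase genes Pkmyt1, which phosphorylates CDK1 to keep it off, and Chek1, which acts on CDC25 phosphatases, were lower by 1.34 and 1.25 without and by 0.99 and 0.95 with cholesterol. Cdkn1a, the p21 inhibitor, was lower in Trem2-/- non-foamy cells (−0.44, adjusted p = 3e-05), fell with cholesterol in WT cells (−0.33, adjusted p = 0.0063), and had 0.01 between the foamy groups.

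Among the regulators that bind these promoters and those of S phase, 10 of 20 tested genes were called lower and 3 higher without cholesterol. The shares were 50% and 15%, against 22.6% and 21% over all tested genes. B-Myb (Mybl2) and the repressor E2f8 were lower by 1.02 and 1.03 without and by 0.73 and 0.90 with cholesterol. The subunits Nfyb and Nfyc of the CCAAT-binding factor were lower by 0.55 and 0.38 without cholesterol, whereas Nfya had 0.06 and was not called. The 3 higher genes were Lin37, a MuvB subunit (0.49), Rb1 (0.25) and Tfdp2, a partner of E2F factors (0.22), and none of these was called with cholesterol.

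S phase genes, which copy the DNA before mitosis, were lower as well. In the 55 S phase genes, 53 were called lower in Trem2-/- non-foamy cells and 52 in Trem2-/- foamy cells. Over all tested genes the shares called lower were 22.6% and 15.9%. The S phase medians were −0.96 and −0.63, against −0.66 and −0.36 for the mitotic genes. In the WT response to cholesterol the median of the S phase genes was −0.15, with 54 of 55 values below 0 and 3 called lower. There 4 of the 119 tested genes of the other 7 lists were called lower (Cenpm, Cenpw, Ube2s and Cdkn1a). The count was 20 for the 58 genes, and 1.14% of all tested genes were called lower. Of the 119 genes 96 lay below 0, against 48.8% of all tested genes. Among them were 23 of 23 other spindle and cytokinesis genes (median −0.19, 0 called). So were 27 of 30 other kinetochore and centromere genes (median −0.17, 2 called lower). These differences between lists were not tested.

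**Figure D5:**
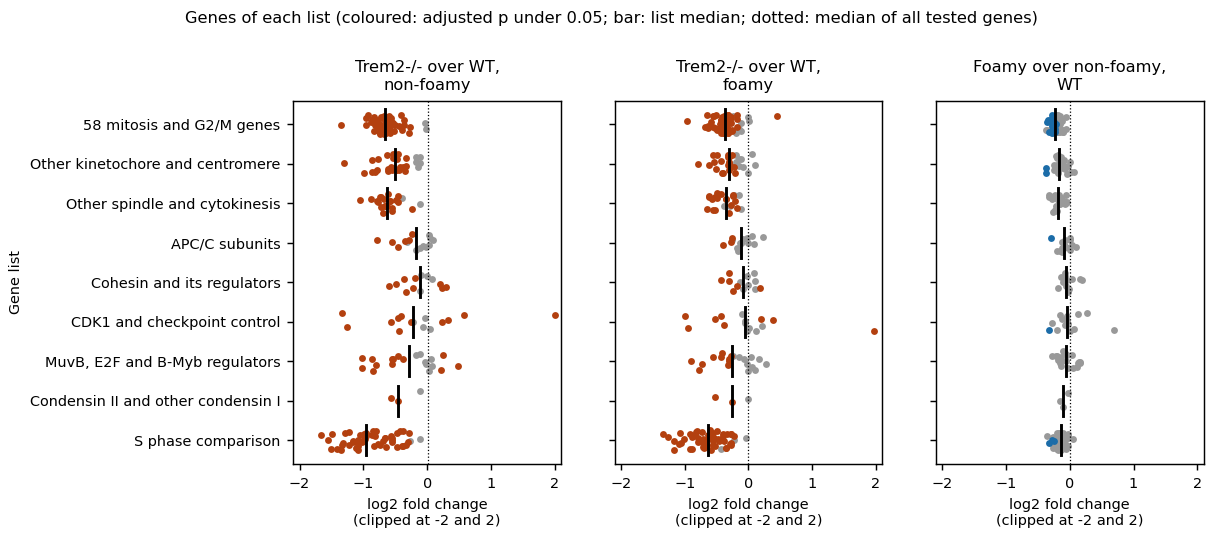
Log2 fold changes of the 58 genes and of 8 further lists (rows) in 3 comparisons (panels); coloured points were called at an adjusted p under 0.05, bars are list medians and the dotted line is the median of all tested genes. The 58 genes and the S phase list lie left of the line in the genotype panels (medians −0.66 and −0.96 without cholesterol), the regulators of CDK1 and of checkpoints spread to both sides, and in the WT response the steps are smaller.

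Counts scaled by total reads alone, in place of TMM factors, moved the median of all tested genes to −0.13 in both genotype comparisons, and the median of the 58 genes then stood at −0.80 and −0.49. Under that scaling Cenpa without cholesterol stood at −0.15 (adjusted p = 0.048) and was called lower, which made 57 genes.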

How the data were processed

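Values came from bulk RNA-seq of BV2 cells. The authors deposited, for each library, a table of raw read counts per gene without normalization. Per the methods, reads were trimmed with Trimmomatic, aligned to GRCm38 with HISAT2 and counted with featureCounts as part of CHURP. Whether strand was used and how multiply aligned reads were counted is not given in the sources used here, so overlapping or similar genes may share reads.

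The 15 libraries were fitted together in edgeR 4.0.16 (R 4.3.3) with 1 mean per group, TMM factors (0.918 to 1.11), glmQLFit and glmQLFTest. filterByExpr (minimum count 10) kept 14237 genes with 99.97% of counts. The biological coefficient of variation was 10.2%. Adjusted p-values are Benjamini-Hochberg over all kept genes, and s.e. is the absolute log2 fold change divided by the square root of F. Levels are CPM after TMM scaling. Per-kilobase levels and overlaps used GENCODE M21, to which 99.55% of gene IDs matched.

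The members and the other lists were chosen with earlier results of these data known, and the other lists were written by hand. Library values are given for Mki67, Top2a, Cdk1, Ccnb1 and Foxm1, for the member of each role with the largest absolute log2 fold change without cholesterol, for members called against the majority, and for at most 6 members called in a response or in the difference, by smallest p. Genes of other lists are named when called against most members or among the 2 largest of a list. Cdc25b's library values, Chek1, the NF-Y subunits, Cdkn1a and Cenpa's neighbours were chosen after their values were seen. Alternatives were DESeq2 1.42.0, RLE factors, total counts alone, other filters on low counts, only the groups compared, a replicate block, leaving out each library in turn and calls only at a log2 size of 1 or more. The fit was tested on simulated data.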

Additional observations from a re-analysis of the deposited data

Results flagged for a closer look

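In 63 groups of 4 libraries, tested over the genes described with library values, 1 library lay far from the other 3 in 4 groups. Chance gives about 1 in 20 groups, so this number is near what chance gives. Cdca8 was lowest in Trem2-/- foamy replicate 4, at 32.4 CPM against 42.2 to 43.2 in the others, and Nek2 was lowest in the same library, at 23.2 CPM against 25.5 to 25.9. Cenpa was highest in Trem2-/- foamy replicate 1, at 88.9 CPM against 79.1 to 80.3. Spc24 was highest in WT non-foamy replicate 3, at 16 CPM against 11.9 to 12.5. Leaving out each library in turn changed no call of these genes between the genotypes.

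The response to cholesterol differed between Trem2-/- and WT cells, by the interaction term of the edgeR fit, in 18 of the 58 genes (1.99% of all tested genes). The count was 8 with a replicate block and 4 to 24 when 1 library was left out. Over all tested genes the calls in either direction were then 294 and 201 to 661, against 518 in the main fit. On the log2 scale the differences were 0.41 for Cdk1, 0.40 for Ccnb1 and 0.44 for Cks1b of the cyclin-CDK1 switch, 0.41 for Aurka and 0.44 for Nek2 among the kinases, and 0.53 for Cdc20 and 0.43 for Ube2c of APC/C. They were 0.47 for Cenpa, 0.34 for Cenpe and 0.38 for Cenpf at the kinetochore, 0.53 for Kif18a, 0.32 for Kif20a and 0.39 for Kif2c among the motors, 0.32 for Tpx2, 0.32 for Prc1, 0.36 for Ect2, 0.40 for Anln and 0.36 for Smc2. All were positive.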

How the results depend on the processing

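The count of genes called lower in Trem2-/- cells without cholesterol stayed at 56 whichever library was left out, and that with cholesterol ranged from 47 to 51, with Cenpa the 1 higher gene each time. The 20 calls of the WT response became 35 with DESeq2, 5 with only the groups compared and 13 with a replicate block, and 3 to 26 when 1 library was left out. The 18 calls of the difference became 28 with DESeq2 and 8 with the replicate block, and 4 to 24 when 1 library was left out. Over all genes the calls in either direction moved in these fits too. For the WT response they were 399 in the main fit, then 832, 144, 312 and 146 to 526 in the same order. For the difference they were 518, then 940, 294 and 201 to 661. With a log2 fold change of at least 1 required, the counts were 0 for the WT response, 1 (Spc24) without cholesterol, 0 lower and 0 higher with it, and 0 for the difference. The count in Trem2-/- cells stayed at 0 in the alternatives run. Same-numbered libraries had correlated deviations of −0.05 to 0.12 (WT) and −0.08 to 0.03 (Trem2-/-), and 4 of 15 libraries correlated best with their own number, so the numbers were not taken as pairs. Nusap1 with cholesterol (0.01) turned to −0.12 with total counts alone and to −0.0026 with no filter on low counts, and ranged from −0.026 to 0.034 when 1 library was left out. Cdc25b without cholesterol then ranged from −0.11 to 0.015, Cenpa from −0.038 to 0.015 (−0.15 and called lower with total counts alone), and Cks2 with cholesterol from −0.092 to 0.031. Of 1279 single-gene values under the alternatives, 1065 kept direction and call, 193 lost the call, 9 gained it and 12 reversed; the causes were not tested.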

Other observations

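The 58 genes lie on 18 chromosomes. The members' median was below that of all tested genes of the chromosome on 18 of them without and on 17 with cholesterol. Over the 20 chromosomes the medians of all tested genes stayed between −0.08 and 0.10 without cholesterol. Around Cenpa on chromosome 5, whose neighbours were looked at after its values were seen, Slc35f6 was higher in Trem2-/- cells by 0.57 without and 0.32 with cholesterol and the microtubule plus-end gene Mapre3 by 1.097 and 0.72, whereas Tmem214 had 0.08 and 0.16 and was not called. Agbl5 was called lower without cholesterol (−0.51, adjusted p = 0.048) and not called with it (−0.26). Ost4 (−0.13 and 0.08), Emilin1 (−0.43 and −0.53) and 5930420M18Rik (−0.34 and 0.36) were not called. The lower coordinate of Mapre3 lies 147864 bases beyond that of Cenpa.

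Within a group, libraries ordered the 58 genes partly by GC content of the longest transcript, which ran from 34.8% in Ncapg to 56.0% in Plk1 and 56.1% in Espl1. Over the 58 genes, which share each library, the deviation from the group mean was set against GC content. The Pearson r was −0.79, 0.70 and 0.59 in Trem2-/- foamy replicates 4, 2 and 3, and −0.60 in WT foamy replicate 3. It was 0.65, 0.62 and −0.51 in WT non-foamy replicates 4, 2 and 3, and −0.59 in Trem2-/- non-foamy replicate 2. In Trem2-/- foamy replicate 1 it was 0.05. Deviations within a group sum to 0, so its libraries are not independent and opposite signs follow. The r of the log2 fold changes with GC content was −0.15 and −0.30 in the genotype comparisons and 0.11 in the WT response. Plk1, Espl1, Gtse1 and Ncapd2, lowest in Trem2-/- foamy replicate 4, were called lower in Trem2-/- foamy cells with that library included, and without it 51 of the 58 genes were called lower. The part of GC content in the fold changes was not tested.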
